A study of Drosophila melanogaster with 39 samples.

Results

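Heads of adult male Drosophila melanogaster, sequenced 1 by 1, were chosen by the measured expression of 4 antibacterial peptide genes, and heads with a high level were compared with heads with a low level. The ranking measure, called the immune index here, was the mean of log2(CPM + 1) over Dpt, DptB, AttC and Dro, where CPM is counts per megacount of the library and 1 is an added offset. Heads were ranked within each of the 5 labelled groups, and the upper and lower ranks of each group were taken as high-index and low-index heads. The middle head of each of the 3 groups with an odd number of heads was put in neither set. This gave 17 high-index heads, 17 low-index heads and 3 middle heads out of 37. These sets were made from the measured values and are not the study's own groups, so each result below describes which genes varied together with the index and not the effect of a treatment.

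Each library came from 1 head of a male of the genotype Cantonized w1118, a white-mutant strain on a Canton background, and polyadenylated RNA was sequenced. There were 7 naive heads of Mid and 7 of High preference, and 6, 8 and 9 shocked heads of High, Mid and Low preference. These are classes of place preference in a behavioural assay, and the sources used here do not give their bounds. The protocol describes electric shock at 60 V for 5 min, the assay at 1.5 h and freezing at 2.5 h in the same words for every sample, so the titles alone tell naive from shocked. The genotype, sex, tissue and stated batch were the same for all heads, and no label describes an infection, a wound or an axenic culture.

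In Drosophila, the Imd pathway responds to peptidoglycan of the kind found in Gram-negative bacteria, which receptors of the PGRP family bind, and it activates the NF-kappaB factor Relish. Relish drives genes for diptericins, attacins, cecropins and drosocin, short secreted peptides that act on bacteria. A parallel pathway through the receptor Toll and the factors Dif and Dorsal drives drosomycin, the Bomanins and part of the metchnikowin response. The fat body, which in the head lies around the brain, and circulating haemocytes are known sources of these peptides.

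The index ranged from 0.639 to 7.852 over the 37 heads. High-index heads lay at 2.879, 5.419 and 7.852 (lowest, median and highest) and low-index heads at 0.639, 1.133 and 3.759. Among the ranking genes, which are given as a description only, DptB was at 8.52, 45.6 and 208 CPM in high-index heads and at 0.271, 1.75 and 23.6 CPM in low-index heads. AttC was at 17.5, 75.7 and 334 CPM against 0.417, 1.81 and 28.9 CPM, and Dro at 6.01, 44.6 and 263 CPM against 0.278, 1.92 and 13.7 CPM. Dpt was at 1.00, 19.6 and 154 CPM in high-index heads, while low-index heads had at most 3.55 CPM of it. The sets overlap in the index over all heads because the ranking was done within groups.

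The distance between the sets differed among the groups. The mean index of high-index heads exceeded that of low-index heads by 5.92 in naive Mid, 5.67 in naive High, 3.62 in shocked High, 2.74 in shocked Mid and 2.59 in shocked Low heads. In naive Mid heads the boundary fell between 5.239 and 1.133, with the middle head at 1.404. In naive High heads it fell between 6.41 and 1.429, with the middle head at 5.807. No naive head had an index between 2 and 4, whereas 10 of 23 shocked heads did. The boundary was narrow in shocked High heads (4.289 against 3.759) and shocked Mid heads (2.879 against 2.814). It was wider in shocked Low heads, at 3.394 against 1.745 with the middle head at 2.43.

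The mean index was 3.17 ± 1.89 (SD) in 23 shocked and 3.95 ± 2.99 in 14 naive heads. The difference of -0.777 was smaller than either SD and, since these values ranked the heads, is given as a description without a test. Total counts, in megacounts (M), were 5.01 to 11.32 M per library, with medians of 7.65 M in high-index and 7.647 M in low-index heads, and the difference of 0.043 M in the means gave p = 0.927 in a two-sided permutation test within groups. The replicate numbers in the titles were unevenly spread: 11 of 17 high-index heads and 3 of 17 low-index heads carried a number from 1 to 3. The sources used here do not say what these numbers record, and their part in the results was not tested beyond the fit with the number as a block.

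**Figure D1:**
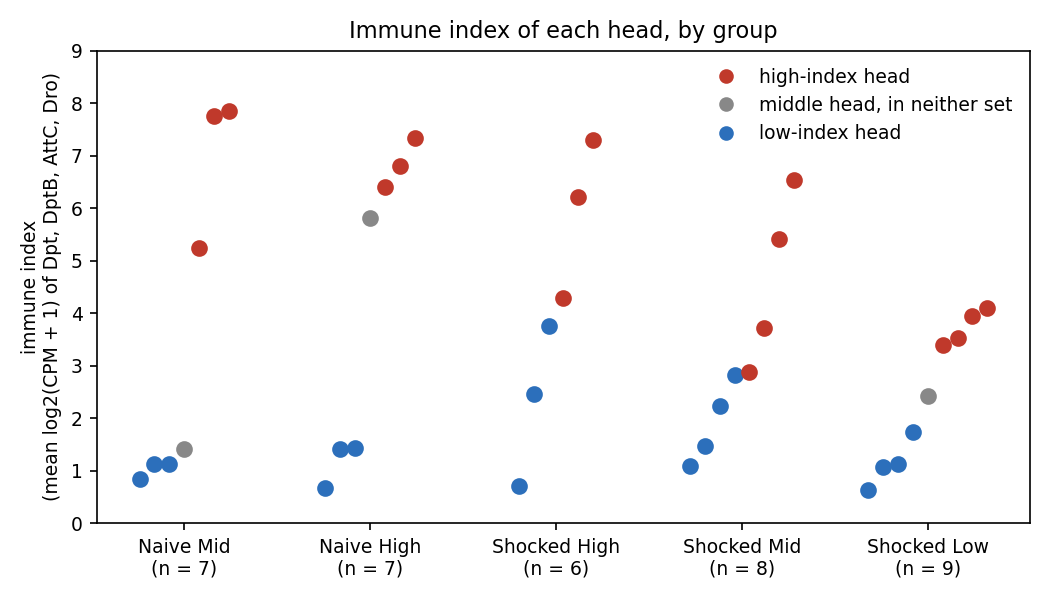
The immune index (mean log2(CPM + 1) of Dpt, DptB, AttC and Dro, vertical axis) of each head, by group. Red points are high-index heads, blue points low-index heads and grey points the 3 middle heads; no naive head lies between 2 and 4, while 10 shocked heads do.

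Of 10510 genes tested, 44 were higher and 4 were lower in high-index heads (edgeR's quasi-likelihood test with group as a block, Benjamini-Hochberg adjusted p under 0.05). The 48 calls are 0.457% of the genes tested, 0.419% for higher and 0.0381% for lower. The median log2 difference over all genes tested was 0.001. Of the 44 higher genes, 15 differed by at least 1 on the log2 scale, and 11 of these belong to the lists of antimicrobial peptides, peptidoglycan recognition proteins and STING and antiviral genes described below. The other 29 differed by less than 1. Of the 48 calls, 22 passed in each of 34 fits that left out 1 head, and the other 26 lost their call in 1 to 26 of these fits. Leaving out 1 head gave 23 to 171 calls. Of the 48 genes, 46 had group means on the same side in 5 of 5 groups, while over all genes tested the mean was higher in every group for 7.27% and lower in every group for 5.39%. The 48 were selected in these same heads, so this agreement is not independent support. No gene, called or not, separated all 17 high-index from all 17 low-index heads. Libraries are single heads, so fewer cells of a type and less RNA per cell cannot be told apart.

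**Figure D2:**
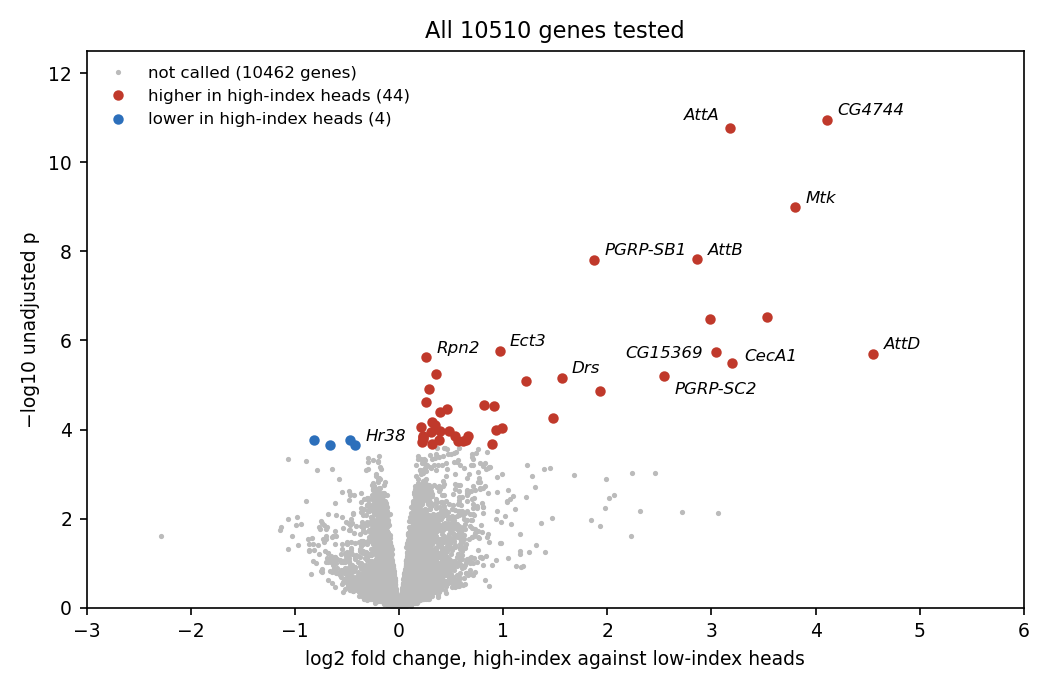
Each point is 1 of 10510 genes tested, with the log2 fold change of high-index against low-index heads on the horizontal axis and the -log10 of the unadjusted p of edgeR's quasi-likelihood test on the vertical axis. The 44 genes called higher (red) reach a log2 fold change of 4.55 and the 4 called lower (blue) reach -0.82.

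Antimicrobial peptide genes outside the index made up the group with the largest differences. A list of 18 such genes, including a small infection-induced peptide gene, had 13 members tested; 7 were called higher, none was called lower, and all 13 had a positive log2 difference, with a median of 2.72. The 5 members not tested were Drsl2, Drsl3, Anp, edin and CG31813, each with a median of 0 CPM in both sets of heads. The list was drawn up with earlier results of these heads known and its genes share a pathway with the index, so its count is not independent support. The filter on low counts worked by index set within each group, so a gene could be tested through high-index heads alone. AttD, CecA2 and CecB had medians of 0 CPM in low-index heads. The number of positive differences and their median are therefore a description only.

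The attacins AttA, AttB and AttD encode glycine-rich peptides directed at Gram-negative bacteria. AttA (2R:14747362-14748215, plus strand, protein coding) was at 14.2, 64.3 and 264 CPM (lowest, median and highest) in high-index heads and at 1.82, 4.62 and 24.2 CPM in low-index heads. Only 3 low-index heads exceeded the lowest high-index head, and none reached the high-index median. The log2 difference was 3.17 ± 0.320 (SE), with an edgeR adjusted p of 9.19e-08. By group, the median AttA level of high-index heads was 72.3 CPM in naive Mid, 63.7 in naive High, 95.1 in shocked High, 50.5 in shocked Mid and 23.0 in shocked Low. The matching medians of low-index heads were 3.12, 2.36, 16.5, 9.67 and 4.92 CPM, so the low-index medians of shocked High and shocked Mid heads were above those of the other groups.

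AttB (2R:14749223-14750165, plus strand) was at 2.38, 15.0 and 81.7 CPM against 0, 1.48 and 11.5 CPM, and its log2 difference was 2.87 ± 0.387 (SE; edgeR adjusted p = 3.23e-05). AttA and AttB are near-identical copies that lie 1007 bases apart, and the index gene Dro lies 647 bases from AttA, so the way counts were split between the attacins is uncertain. AttD (3R:17625268-17626086, plus strand) was low throughout, at 0, 0.536 and 10.3 CPM against 0, 0 and 0.328 CPM, and 12 of 17 low-index heads had no AttD count. Its fitted log2 difference of 4.55 ± 0.793 (SE; edgeR adjusted p = 0.00207) rests on these few counts, and its call was lost in 2 of 51 alternatives, among them limma-voom (adjusted p = 0.0538). Shocked High head 4 held the highest level of AttA, AttB and AttD.

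Metchnikowin, the product of Mtk, acts on fungi and Gram-positive bacteria. Mtk (2R:15408846-15409113, plus strand) was at 1.75, 20.7 and 69.7 CPM in high-index heads and at 0, 1.36 and 5.16 CPM in low-index heads. No low-index head reached the high-index median, but 7 exceeded the lowest high-index head, shocked Mid head 5, whose index was also the lowest of its set. The log2 difference was 3.81 ± 0.454 (SE; edgeR adjusted p = 3.55e-06). CR45045 (3R:17667572-17667825, plus strand), entered as a non-coding RNA in the count table and as the protein-coding gene CG45045 in the current annotation, was at 0.251, 3.21 and 27.6 CPM against 0, 0.198 and 2.86 CPM. It differed by 3.54 ± 0.554 on the log2 scale (edgeR adjusted p = 0.000485).

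Drosomycin, an antifungal peptide encoded by Drs and best known as a Toll target, was at 2.26, 11.5 and 22.8 CPM in high-index heads and 1.05, 2.98 and 8.96 CPM in low-index heads. The sets overlapped over much of the range, since 14 low-index heads exceeded the lowest high-index head. Drs differed by 1.56 ± 0.293 (SE) on the log2 scale, with an edgeR adjusted p of 0.00477.

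Cecropins are short helical peptides that disrupt bacterial membranes, and their 4 genes tested here lie side by side on 3R as near copies, so that reads may be split among them. CecA1 was at 0.501, 2.64 and 30.3 CPM against 0, 0.122 and 5.14 CPM, with a log2 difference of 3.20 ± 0.573 (SE; edgeR adjusted p = 0.00285). CecA2, CecB and CecC did not pass, with log2 differences of 2.46, 1.84 and 2.06 and edgeR adjusted p-values of 0.0749, 0.182 and 0.120. Defensin, the product of Def and a peptide directed at Gram-positive bacteria, had a log2 difference of 2.72 ± 0.948 (SE) without passing (edgeR adjusted p = 0.156). Def varied widely within both sets, from 0 to 142 CPM in high-index heads and from 0.115 to 63.0 CPM in low-index heads, and 2 high-index heads had no Def count. Mtkl, listed as CG43236, differed by 1.28 (edgeR adjusted p = 0.0827) and Drsl5 by 0.18 (edgeR adjusted p = 0.569), both on the log2 scale and without passing.

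**Figure D3:**
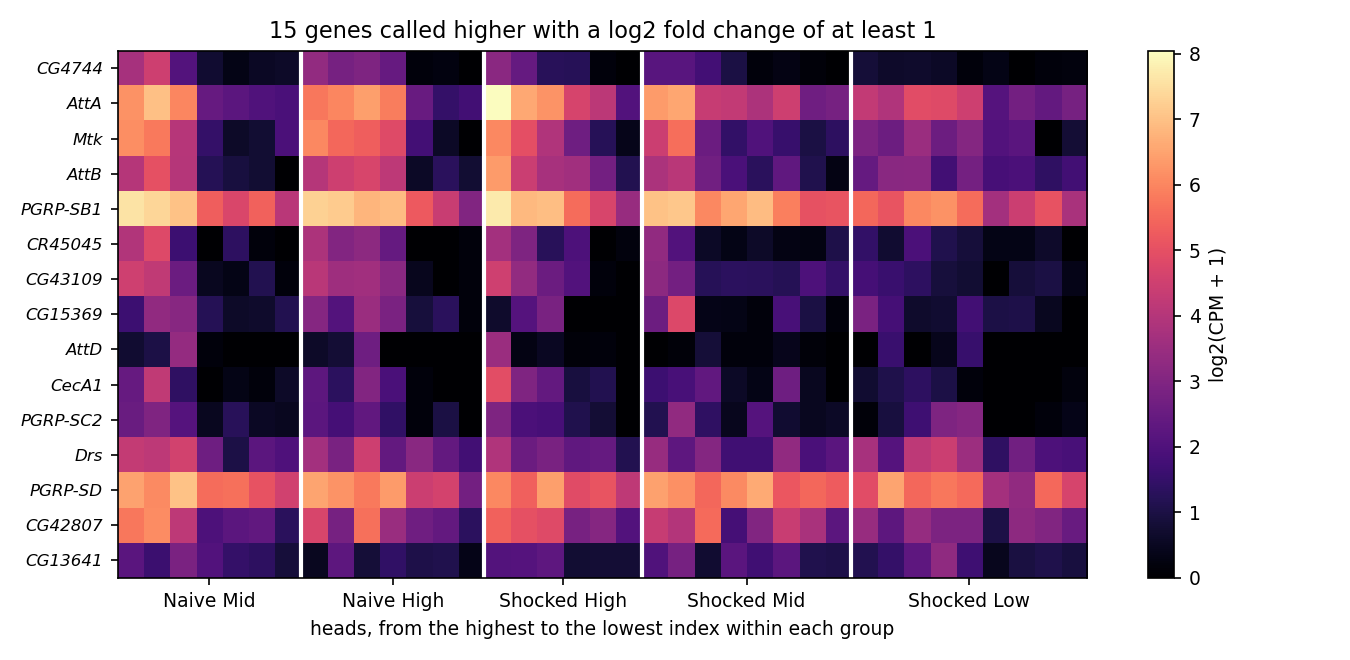
Each cell is the log2(CPM + 1) of 1 of the 15 genes called higher with a log2 fold change of at least 1 (rows) in 1 of 37 heads (columns), ordered from the highest to the lowest index within each group. AttA, PGRP-SB1 and PGRP-SD were detected in every head, and the low-abundance genes AttD, CecA1 and CR45045 had no count in 12, 7 and 5 of the 17 low-index heads.

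The middle heads were left out of the main fit. They did enter the slopes, the fit with the index as a continuous covariate and the split at the median over all heads. Not all called genes followed the index over the middle heads. The naive High middle head, with an index of 5.807, had 56.7 CPM of AttA, 28.0 CPM of Mtk and 121 CPM of PGRP-SB1. The shocked Low middle head, at 2.43, had 21.4, 7.36 and 47.1 CPM of the same genes. The naive Mid middle head, at 1.404, had 4.56, 1.82 and 38.8 CPM. Of the 11 called antimicrobial, peptidoglycan recognition and STING genes, 6 were in the order of the index over these 3 heads, these 3 among them, as were 20 of all 44 genes called higher. Drs was not, at 4.30 CPM in the naive High, 10.6 in the shocked Low and 5.21 in the naive Mid middle head, nor were PGRP-SC2, AttD, CG13641 and PGRP-SD. These counts describe 3 heads, each of a different group, and carry no test. The matching share over all genes tested was not counted, so they cannot be read as particular to the called genes.

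The calls CG4744 and CG43109 cannot be told apart from reads of the index genes. CG4744 (2R:13394615-13399368, minus strand) had the smallest p, with a log2 difference of 4.11 ± 0.406 (SE; edgeR adjusted p = 9.19e-08), and shares 53 exon bases on the opposite strand with AttC. CG43109 (2R:18867848-18868167, minus strand) differed by 2.99 ± 0.470 (SE; edgeR adjusted p = 0.000485) and shares 48 exon bases on the opposite strand with DptB. The library kit named in the labels does not mark strand, and the sources used here do not give the strand setting of the counting. In high-index heads the counts of CG4744 were 2.83% to 9.65% of those of AttC, with a median of 4.05%. In the 4 low-index heads with at least 50 AttC counts they were 1.35% to 4.76%, with a median of 1.88%. Pooled over all heads of each set, including those with fewer AttC counts, the share was 4.72% in high-index and 4.73% in low-index heads. The counts of CG43109 were 8.12% to 17.6% of those of DptB in high-index heads. Pooled over all heads of each set, the share was 11.4% in high-index and 24.6% in low-index heads.

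Further calls overlap other genes in the same way, and their level cannot be assigned to 1 strand. The exons of nAChRbeta3, which encodes an acetylcholine receptor subunit, lie wholly within exons of Ets21C, a transcription factor gene of the JNK response, and 1532 of its 1532 exon bases are shared. It differed by 0.93 ± 0.211 (SE; edgeR adjusted p = 0.0364), while Ets21C differed by 0.69 ± 0.182 without passing (edgeR adjusted p = 0.0655). The antisense RNAs CR45714, CR45396 and CR31144 share 872, 501 and 488 exon bases with Hayan, Pdi and RpL3, and differed by 0.48, 0.39 and 0.31 on the log2 scale with edgeR adjusted p-values of 0.0364, 0.0182 and 0.0282. Some calls named below share a smaller part of their exon bases with genes on the opposite strand. Among them are Zw (411 of 2512 bases), Hr38 (168 of 7704), Sfp78E (158 of 829) and Hmgs (148 of 2795).

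Of the peptidoglycan recognition proteins, 9 of 13 genes were tested, 3 were called higher and none lower, and 8 of the 9 had a positive log2 difference, with a median of 0.41. PGRP-SB1 (3L:16727299-16727989, minus strand) encodes a secreted amidase that cleaves peptidoglycan and is induced through Imd. It was at 33.5, 122 and 211 CPM in high-index heads and at 6.95, 25.5 and 121 CPM in low-index heads. Its log2 difference was 1.87 ± 0.253 (SE; edgeR adjusted p = 3.23e-05), and a single low-index head, shocked Mid head 6, lay at 121 CPM, just under the high-index median. That head had an index of 2.814 and was the nearest of all low-index heads to the boundary.

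PGRP-SC2, a secreted amidase known to dampen Imd signalling, was at 0.109, 2.84 and 8.94 CPM against 0, 0.406 and 3.36 CPM and differed by 2.55 ± 0.474 (SE; edgeR adjusted p = 0.00461). PGRP-SD, a secreted recognition protein, was at 29.3, 66.9 and 129 CPM against 5.56, 28.5 and 96.8 CPM and differed by 1.22 ± 0.232 (SE; edgeR adjusted p = 0.00545). Only 1 low-index head exceeded the high-index median of each. The other 6 genes tested did not pass. Among them, named for their place in the pathway and outside the naming rule, the membrane receptor PGRP-LC differed by 0.04 (edgeR adjusted p = 0.853), the intracellular receptor PGRP-LE by -0.14 (edgeR adjusted p = 0.351), and PGRP-SA, which serves Toll, by 0.85 (edgeR adjusted p = 0.0605).

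**Figure D4:**
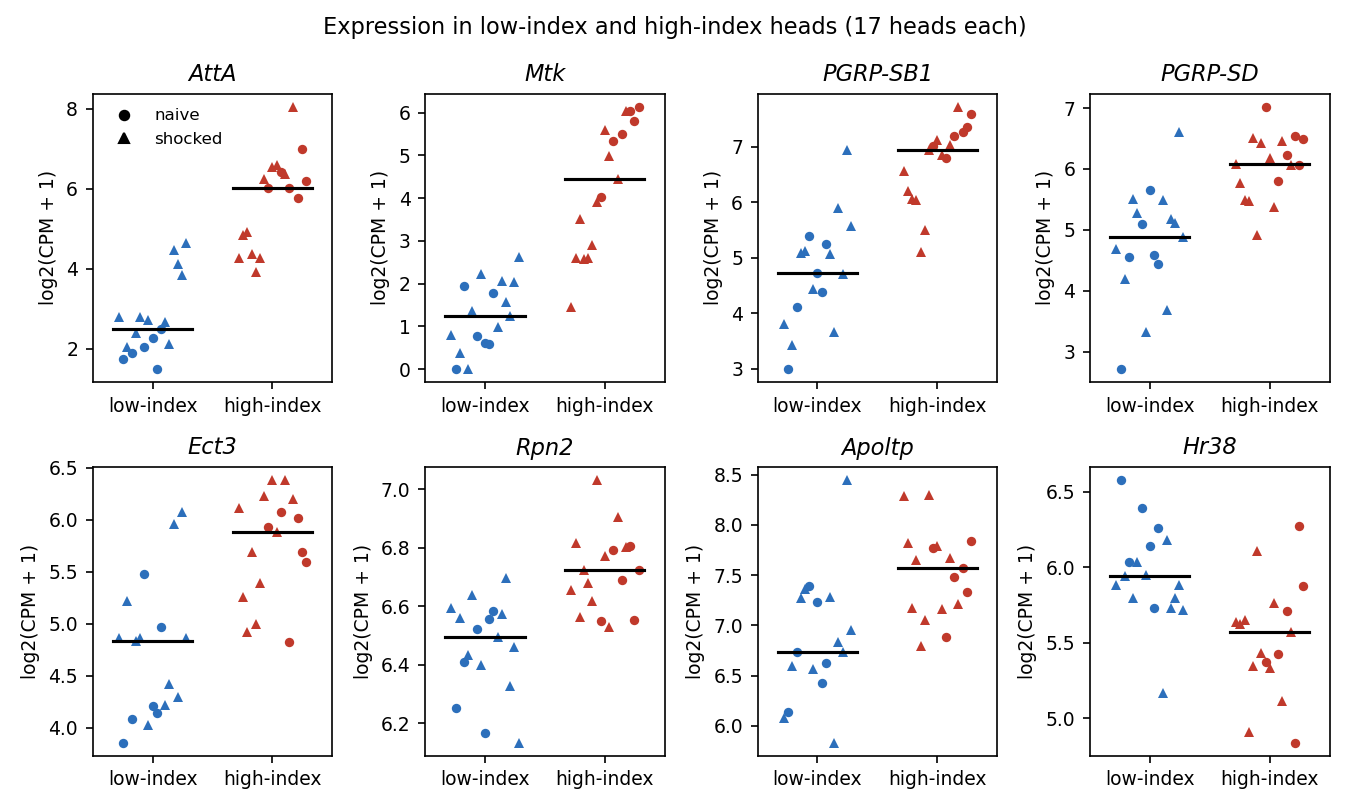
The log2(CPM + 1) of 8 named genes in the 17 low-index (blue) and 17 high-index (red) heads, ordered by index from left to right within each set; circles are naive and triangles shocked heads, and black lines are medians. AttA and Mtk medians differ most and Hr38 is lower in high-index heads, yet every panel shows overlap between the sets.

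The signalling genes upstream of the peptides differed less. None of 19 Imd signalling and negative regulator genes passed; 12 had a positive log2 difference and the median was 0.04. The member with the smallest p was pirk, a negative regulator of Imd that is also one of its targets, at 12.9 CPM in the median high-index and 9.40 CPM in the median low-index head (log2 difference 0.52 ± 0.173, SE; edgeR adjusted p = 0.139). Rel, which encodes Relish and was named for its place in the pathway, was at medians of 143 and 112 CPM (log2 difference 0.39, edgeR adjusted p = 0.170). The adaptor gene imd differed by 0.24 on the log2 scale (edgeR adjusted p = 0.285).

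None of 19 Toll cascade genes passed, 17 had a positive log2 difference, and the median was 0.11. Hayan, a serine protease gene of melanization and Toll activation, had the smallest p (log2 difference 0.43 ± 0.108, SE; edgeR adjusted p = 0.0625). All 20 Bomanin and immune-induced molecule genes tested had a positive log2 difference, with a median of 0.42 against 0.001 for all genes tested, and none passed. Listericin, which encodes an antibacterial peptide, came nearest at 26.6, 82.1 and 405 CPM against 19.9, 47.0 and 93.2 CPM (log2 difference 0.80 ± 0.261, SE; edgeR adjusted p = 0.135).

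Of 9 tested genes of STING and antiviral defence, 8 had a positive log2 difference, with a median of 0.59, and CG13641 was called higher. CG13641, known as Srg1 for its regulation by STING, was at 0.402, 3.39 and 8.83 CPM against 0.278, 1.09 and 3.72 CPM, and 15 low-index heads exceeded the lowest high-index head (log2 difference 1.48 ± 0.320, SE; edgeR adjusted p = 0.0242). It lies 617 bases from Ela, another call. Sting itself, listed as CG1667 and named for its place in the pathway, differed by 0.59 on the log2 scale (edgeR adjusted p = 0.107). The Turandot and JAK-STAT list had 14 genes tested, none called, and a median of 0.19; Tep4, a thioester protein gene, had the smallest p (log2 difference 0.27, edgeR adjusted p = 0.125).

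The melanization and wound list had 14 genes tested, none called and a median of 0.20. Its smallest p was that of fon, a clotting factor gene, which was at 63.5, 181 and 344 CPM against 26.6, 102 and 365 CPM (log2 difference 0.87 ± 0.232, SE; edgeR adjusted p = 0.0686). The JNK and injury list, with 12 genes tested and none called, had 8 negative members and a median of -0.04. Heat shock genes had 10 tested, none called and a median of 0.07, with Hsp68 nearest (log2 difference 0.56, edgeR adjusted p = 0.107). Genes of oxidative defence and detoxification had 23 tested, none called and a median of 0.14, with the immune-regulated catalase gene Irc nearest (log2 difference 0.44, edgeR adjusted p = 0.158).

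**Figure D5:**
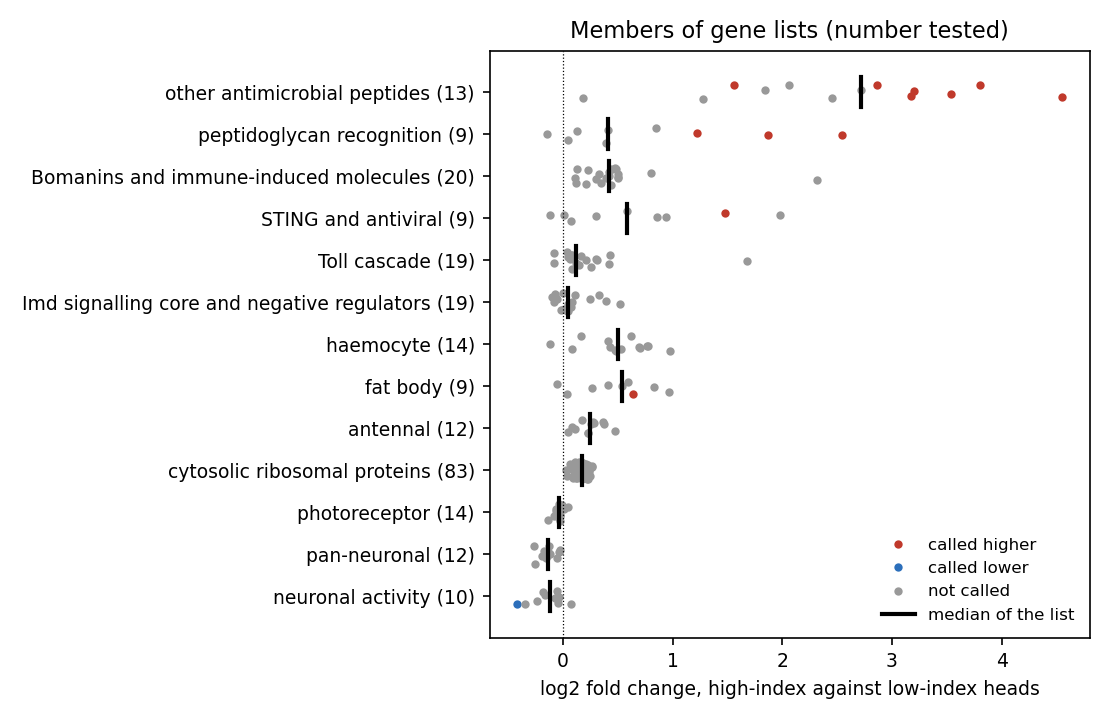
Each point is the log2 fold change of 1 tested gene in high-index against low-index heads, for 13 of the gene lists (number tested in brackets); red points were called higher, the blue point called lower and grey points not called, and black bars are list medians. The antimicrobial peptide list has a median of 2.72, the Imd signalling list 0.04 and the pan-neuronal list -0.14. The first of these is a description only, since its genes share a pathway with the index and high-index heads alone could admit a gene.

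Naive and shocked heads were then compared in their relation to the index. In the fit with separate effects, 11 genes were called higher in naive high-index heads (0.105% of those tested) and 5 in shocked ones (0.0476%), and none lower. At an unadjusted p under 0.05 there were 881 and 867 genes. All 5 of the shocked calls, CG4744, AttA, Mtk, AttB and PGRP-SB1, were among the 11 naive calls. Of the 11, 10 were called over all heads; the other was CecC, with a log2 difference of 5.79 ± 1.20 in naive and 0.91 ± 0.654 in shocked heads (SE; edgeR adjusted p = 0.0329 and 0.730).

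The log2 difference was larger in size in naive than in shocked heads for 40 of the 48 genes. The gap in the index was 5.79 in naive and 2.92 in shocked heads. The matching share over all genes tested was not counted, so 40 of 48 cannot be read as particular to the called genes. Naive effects rest on 6 high-index and 6 low-index heads, and shocked effects on 11 and 11. AttA differed by 4.62 ± 0.492 (SE) in naive and 2.53 ± 0.325 in shocked heads, and Mtk by 5.32 ± 0.727 and 3.02 ± 0.509. No gene passed the test of the difference between naive and shocked heads (edgeR, 0 of 10510, or 0%; 310 genes, or 2.95%, at an unadjusted p under 0.05; DESeq2 and limma-voom also gave 0 calls). The 3 genes with the smallest p, named as not passing, were CG5783, fd96Ca, a forkhead factor gene, and BubR1, a spindle checkpoint gene, each with an edgeR adjusted p of 0.249.

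Slopes per unit of the index were also compared between naive and shocked heads. The slope of AttA was 0.77 ± 0.062 (SE, log2 per index unit) in naive and 0.79 ± 0.071 in shocked heads, that of Mtk 0.88 ± 0.075 and 0.99 ± 0.095, and that of PGRP-SB1 0.45 ± 0.055 and 0.50 ± 0.073. The slopes of CecC were further apart, at 1.02 ± 0.170 in naive and 0.43 ± 0.163 in shocked heads (edgeR unadjusted p = 0.0281), as were those of CecA2, at 1.15 ± 0.199 and 0.61 ± 0.172, while those of CG13641 were 0.17 ± 0.097 and 0.40 ± 0.123. The tests of the slope differences gave edgeR adjusted p-values of 1 for these 6 genes, which does not show that the slopes are equal.

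The remaining calls included genes of protein turnover, protein folding and metabolism. Other remaining calls, named after their values were seen, were CG42807, CG5527, CG10131 and betaTub60D. They differed by 1.93, 0.99, 0.92 and 0.89 on the log2 scale (edgeR adjusted p = 0.0078, 0.0342, 0.0150 and 0.0475). Their calls were lost in 5, 28, 7 and 37 of 53 alternatives. Ect3 (3R:11999278-12003516, plus strand), annotated as a beta-galactosidase gene, was at 27.3, 58.1 and 82.4 CPM against 13.5, 27.5 and 66.3 CPM. It differed by 0.97 ± 0.167 (SE) on the log2 scale (edgeR adjusted p = 0.00207), although 9 low-index heads exceeded the lowest high-index head. CG15369 (X:9216872-9217466, plus strand) was at 0.251, 3.39 and 26.9 CPM against 0, 0.523 and 2.62 CPM, a log2 difference of 3.04 ± 0.527 (SE; edgeR adjusted p = 0.00207). Its call was lost in 2 of 53 alternatives, limma-voom (adjusted p = 0.0659) and the fit with the replicate number as a block (edgeR adjusted p = 0.197).

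Rpn2 (3R:29153524-29157255, plus strand) encodes a subunit of the regulatory particle of the proteasome. It was at 91.2, 105 and 130 CPM in high-index and 69.2, 89.1 and 103 CPM in low-index heads, and no low-index head reached the high-index median. The log2 difference was 0.26 ± 0.046 (SE; edgeR adjusted p = 0.00229), a call lost in 3 of 53 alternatives. Over 33 proteasome genes tested, a list chosen after these values were seen, 31 had a positive log2 difference, the median was 0.13, and Rpn2 and Rpn3 were called, the latter in 10 of 53 alternatives.

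Several further calls were named after their values were seen. The protein disulphide isomerase gene ERp60, the calreticulin gene Crc and the cyclophilin-like CG2852 act in folding of secreted proteins, and differed by 0.25, 0.23 and 0.23 on the log2 scale (edgeR adjusted p = 0.0130, 0.0431 and 0.0418). They were the 3 called members of 19 genes of folding and secretion, of which 18 had a positive log2 difference with a median of 0.17. Zw, which encodes the first enzyme of the pentose phosphate pathway, and the transketolase-like CG8036 differed by 0.31 and 0.57 (edgeR adjusted p = 0.0364 and 0.0439), and all 6 tested genes of that pathway had a positive log2 difference. Idgf2, a secreted chitinase-like growth factor gene, differed by 0.62 (edgeR adjusted p = 0.0439), and all 5 genes of its family had a positive log2 difference. The folding, pentose phosphate and Idgf lists were drawn up after the calls were seen and contain them. Their counts of positive differences and medians are therefore a description only. Over all 10510 genes tested, 5277 had a positive log2 difference. Zw, CG2852, Crc, Idgf2 and CG8036 lost their calls in 31 to 36 of 53 alternatives. The sterol pathway gene Hmgs and the autophagy gene Atg9 differed by 0.36 and 0.29 (edgeR adjusted p = 0.00447 and 0.00779).

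Markers of the cell types known to make immune peptides were compared in the same heads. Apoltp (2L:9634179-9656026, plus strand), a lipid transfer apolipoprotein gene of the fat body, was at 110, 190 and 315 CPM in high-index and 56.1, 106 and 348 CPM in low-index heads. It was called higher (log2 difference 0.64 ± 0.151, SE; edgeR adjusted p = 0.0439), although the highest head of all, shocked Mid head 6, was a low-index head. It was the only called member of 9 fat body genes tested, of which 8 had a positive log2 difference with a median of 0.54. The summed level of the fat body list was 1780, 3873 and 7469 CPM against 816, 2390 and 8943 CPM. The storage protein gene Lsp2, a defining marker, differed by -0.05, and the marker genes Fbp1 and Fbp2 were at medians of 0.170 and 0 CPM in high-index heads, and Fbp2 was also at a median of 0 CPM in low-index heads.

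With the fat body score added as a covariate, 18 genes were called, of which 16 were among the 48. These included all 7 called antimicrobial peptide genes and all 3 called PGRP genes, with AttA at a log2 difference of 3.22 and PGRP-SD at 0.84. Apoltp is itself part of the fat body score, which shrinks its own difference in that fit by construction. It did not pass there, with a log2 difference of 0.36, and lost its call in 34 of 53 alternatives.

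None of 14 haemocyte genes passed, 13 had a positive log2 difference, and the median was 0.51. The collagen IV gene Cg25C was nearest, at 80.9, 146 and 203 CPM against 57.9, 90.9 and 149 CPM (log2 difference 0.53 ± 0.132, SE; edgeR adjusted p = 0.0605). The summed haemocyte level was 1559, 2454 and 3439 CPM against 614, 1502 and 4396 CPM. All 12 antennal genes tested had a positive log2 difference (median 0.24, none called; summed medians 923 and 615 CPM), and Ir76b had the smallest p (edgeR adjusted p = 0.538). All 83 cytosolic ribosomal protein genes tested had a positive log2 difference as well, with a median of 0.18 and none called; RpL4 had the smallest p (log2 difference 0.24, edgeR adjusted p = 0.0644). The parts that haemocytes and antennal tissue have in the immune differences were not tested, beyond a fit with the antennal score as a covariate, which called 36 genes, all among the 48.

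The 4 genes lower in high-index heads passed narrowly. Hr38 (2L:20683462-20714588, minus strand), a nuclear receptor gene induced by neuronal activity, was at 27.6, 46.5 and 76.5 CPM in high-index and 34.9, 60.5 and 94.6 CPM in low-index heads, and 16 of 17 low-index heads exceeded the high-index median. Its log2 difference was -0.42 ± 0.102 (SE; edgeR adjusted p = 0.0498). The others were the seminal fluid protein gene Sfp78E (-0.82, edgeR adjusted p = 0.0439), the cyclin-dependent kinase subunit gene Cks30A (-0.66, edgeR adjusted p = 0.0498) and the non-coding RNA CR45522 (-0.47, edgeR adjusted p = 0.0439), which overlaps rut and Ag5r on the opposite strand. Hr38, Cks30A, CR45522 and Sfp78E lost their calls in 40, 39, 33 and 31 of 53 alternatives, always with the sign kept.

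Neural lists lay slightly below the median of all genes. Of 10 neuronal activity genes, Hr38 was the only one called, 9 had a negative log2 difference, and the median was -0.12. All 12 pan-neuronal genes had a negative log2 difference, with a median of -0.14 and none called; the sodium channel gene para had the smallest p (log2 difference -0.26, edgeR adjusted p = 0.121). Of 14 photoreceptor genes, 12 had a negative log2 difference, the median was -0.04 and none was called; norpA had the smallest p (edgeR adjusted p = 0.324). Photoreceptor RNA, summed over the list, was at 69190, 90940 and 104400 CPM in high-index and 71410, 94070 and 108900 CPM in low-index heads, so eye RNA was present in every library.

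Other lists had no called member. Lipid synthesis and storage genes had a median of 0.17 over 12 tested (mdy nearest, edgeR adjusted p = 0.202). Amino acid and stress response genes had a median of 0.09 over 12 (CG3011 nearest, edgeR adjusted p = 0.196), iron and metal binding genes 0.06 over 7 (Mvl nearest, edgeR adjusted p = 0.119) and sugar and starvation genes 0.04 over 18 (AGBE nearest, edgeR adjusted p = 0.0989). Glial genes had a median of 0.04 over 12 (CG6126 nearest, edgeR adjusted p = 0.170), insulin and adipokinetic genes -0.02 over 9 (Ilp3 nearest, edgeR adjusted p = 0.536), head muscle genes -0.02 over 14 (wupA nearest, edgeR adjusted p = 0.418) and sex-biased genes -0.08 over 9 (roX1 nearest, edgeR adjusted p = 0.136). Of 14 gut genes only 2 were tested, and Amy-p, an amylase gene, was nearest with a log2 difference of 1.22 (edgeR adjusted p = 0.124).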

How the data were processed

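Reads were trimmed with Trimmomatic, aligned to dm6 with STAR, filtered to primary alignments of mapping quality 8 or more and counted on exons with HTSeq, per the series design text and the submitters' processing notes. The sources used here give neither tool versions nor a strand setting. The deposited table holds raw counts for 17559 genes. Of 39 labelled samples, 37 had a column; 2 shocked High samples were not analysed here, and 2 columns that match no sample were not used. The extraction text names both total RNA and a nuclear library, which was not resolved. Nothing in the counts pointed to a library deposited more than once: within groups, chi-square per gene was 7.68 or more.

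The 4 index genes were left out of the tests. Genes were filtered with filterByExpr by index set within each group, so high-index heads alone could admit a gene to the tests. Counts were scaled by TMM (factors 0.918 to 1.086). The fit of the index set by edgeR 4.0.16 had group as a block over 34 heads, with Benjamini-Hochberg adjustment over 10510 genes. DESeq2 1.42.0, limma 3.58.1, R 4.3.3 and Python 3.11.15 served the alternatives and figures; the model code was tested on simulated data. Replicate numbers were not taken as pairs, since deviations of same-numbered heads correlated from -0.331 to 0.297 (median 0.018, 67 pairs). CPM levels were not divided by gene length. Positions are from Ensembl 115 in dm6 coordinates and 46 of 48 called genes matched. The p-values measure the spread between heads together with counting error, which weighs more for genes with few counts, such as AttD.

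The named genes were the 12 higher and 12 lower calls with the smallest p, up to 4 calls or else the nearest gene of each list, all antimicrobial peptides and 3 interaction genes. The members, lists and tests were chosen with earlier results of these heads known.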

Additional observations from a re-analysis of the deposited data

Results flagged for a closer look

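In 2 of 10 sets tested, a single library stood apart from its group in total count. Among naive Mid heads, head 1, a high-index head, had the lowest total of its group at 6096309 counts, far below the next. Among naive High heads, head 3, also a high-index head, had the highest total of its group at 11317047 counts. Chance flags about 1 in 20 such sets. With log2 of the total count as a covariate 38 genes were called, all among the 48, and leaving out either head gave 36 and 40 calls. No group had an outlying immune index.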

How the results depend on the processing

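All 48 called genes kept their direction under each alternative that tested them, and CG4744, AttA, Mtk, AttB and PGRP-SB1 passed under each of these. CG4744 was tested in 52 and AttD in 51 of 53 alternatives. The number called depended on the settings. It was 149 with DESeq2 (128 higher, 21 lower, including all 48). With only the highest and lowest ranks within each group (11 heads a side) it was 20. It was 17 with a split at the median over all heads and 24 with the index as a continuous covariate. It was 18 with the fat body score as covariate and 30 in the replicate block fit, where 19 were among the 48. Without naive Mid, naive High, shocked High or shocked Low heads it was 23, 13, 16 and 21. The other alternatives gave 36 to 65. Leaving out 1 head gave 23 to 171 calls. The count moved by over 1.5 times without naive Mid head 2 (171) or 4 (26), naive High 1 (25), 4 (30) or 7 (26), shocked High 1 (28), 2 (74), 3 (28), 5 (30) or 6 (23), shocked Mid 5 (31), 6 (163) or 8 (31), and shocked Low 4 (154), 5 (27), 6 (27), 8 (24) or 9 (96). Of the 48, 22 passed in all 34 such fits. Within naive heads DESeq2 called 32 and limma-voom 3 against 11, and within shocked heads 13 and 2 against 5. Reversed values were wupA, not called, at 0.012 with the fat body covariate and 0.0089 in the replicate block fit against -0.12, and the difference in total count, at -0.011 on the log2 scale (permutation p = 0.898). The cause of these changes was not tested. Over all genes kept by the filter, deviations of same-numbered heads had a median correlation of 0.018, and 7 heads correlated best with their own number. These correlations do not describe the called genes alone. The index itself was uneven over the numbers, since 11 of 17 high-index and 3 of 17 low-index heads carried a number from 1 to 3. The shocked minus naive index was -0.31 to -0.785 over its alternatives. The slope test of naive against shocked heads was added after seeing the data. Median-ratio scaling in place of TMM moved the median of all genes from 0.001 to -0.005 and changed the sign of no list median. Genes with few counts, such as AttD, are limited by depth.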

Other observations

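The 46 calls matched to the annotation were spread unevenly over the genome: 14 lay on 2R, which is 30.4% of the matched calls against 20.6% of the matched genes tested, and 16 lay on 3R (34.8% against 24.7%). The 2R calls include AttA, AttB, CG4744 and CG43109, which lie within 10000 bases of an index gene. No test of this spread was made.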
